A study of Homo sapiens with 24 samples.

Results

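Classical cadherins are single-pass membrane proteins that join neighbouring cells at adherens junctions. Their outer domains bind cadherins of the next cell in the presence of calcium, and their cytoplasmic tails bind beta-catenin and p120-catenin, through which the junction reaches alpha-catenin and actin. Type I members, such as E-cadherin (CDH1) and N-cadherin (CDH2), and type II members, such as CDH6 and CDH11, differ in the interface of their outermost domain. Epithelial cells, including human embryonic stem cells (hESCs), are known for CDH1, the neural plate is known for exchanging CDH1 for CDH2, and migrating neural crest cells are known for changing their cadherins again, with several type II members among those they carry.

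The genes described here are 10 classical cadherins, found as the rows of the gene count table whose Ensembl identifiers map to CDH1, CDH2, CDH3 and CDH4 (type I) and to CDH6, CDH7, CDH10, CDH11, CDH12 and CDH18 (type II). All 10 had a row, among 61551 genes. RNA was sequenced from H9, an established hESC line, with 4 genotypes at HAR123, an enhancer inside an intron of SMG6: unedited cells (hHAR123), cells with the enhancer deleted (HAR123-KO), and cells in which it was replaced by the chimpanzee (cHAR123) or mouse (mHAR123) counterpart. Each genotype was collected undifferentiated (ESC, day 0) and as neuroectoderm (ECTO) after 5 days in knockout serum replacement medium with Noggin and SB431542, which block BMP and activin/nodal signalling, so that every ECTO group received both agents and no ESC group did. Each of the 8 groups holds 3 libraries. Per the paper, 2 independent clones of each of the 4 genotypes, hHAR123 included, were used for sequencing. The labels do not tie libraries to clones, and libraries of a group may share a clone. The p-values therefore measure the spread among libraries, some of that spread may be technical, and differences between clones cannot be separated out.

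Library totals were 23334732 to 35198684 counts in ESC and 21022748 to 25978892 in ECTO, and each of the 24 libraries correlated best with a library of its own group. The enhancer lies in an intron of SMG6, and no row of the table was used to check the genotype labels directly. Whether the deleted bases touch a counted exon of another transcript was not checked. One label could be checked in another way, by setting mean normalised counts of the columns against the mean counts printed beside the genes of a supplementary list. Each mean was taken over the libraries of 1 edited genotype and of hHAR123 at 1 stage, so hHAR123 is part of every value compared. In ECTO, the list headed cHAR123 lay within 1% of the columns labelled mHAR123 for 117 of 117 genes and of those labelled cHAR123 for 7, and the list headed mHAR123 lay within 1% of the columns labelled cHAR123 for 114 of 114 genes and of those labelled mHAR123 for 7. The ESC lists and the HAR123-KO lists matched the columns of their own name. The values for cHAR123 and mHAR123 in ECTO are given below by column label, and which of these libraries is the chimpanzee replacement and which the mouse replacement is therefore uncertain. hHAR123 and HAR123-KO are not affected.

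The markers of the cells the cultures could hold were read beside the cadherins. The summed level of 8 pluripotency genes was 6697 to 7223 CPM (a gene's reads scaled to a common library total of 1e6 counted reads) in ESC and 1690 to 1966 CPM in ECTO. The summed level of 8 neuroectoderm genes was 27.2 to 38.6 CPM in ESC and 535.9 CPM or more in ECTO. Of the 8 pluripotency genes, 7 were called lower in hHAR123 ECTO than in ESC (edgeR adjusted p under 0.01 and a log2 fold change beyond 1), with a median log2 fold change of −5.70. The share of all genes called lower there was 21.2%. Most of the pluripotency sum left in ECTO was LIN28A, at a mean of 1341 to 1555 CPM over the 4 genotypes and not called (log2 −0.66 in hHAR123), while POU5F1 went from 1139 to 15.4 CPM, NANOG from 157 to 1.26 CPM and TDGF1 from 378 to 0.769 CPM in hHAR123.

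The 10 genes lie on 4 chromosomes. CDH3 (ENSG00000062038, chr16:68636189-68727468, plus strand, GRCh38) and CDH1 (ENSG00000039068, chr16:68737292-68835537, plus strand) are neighbours on 1 strand. CDH11 (ENSG00000140937, chr16:64943753-65126112, minus strand) lies on the same chromosome. CDH18 (ENSG00000145526, chr5:19471296-20575873, minus strand), CDH12 (ENSG00000154162, chr5:21750673-22853344, minus strand), CDH10 (ENSG00000040731, chr5:24487100-24644978, minus strand) and CDH6 (ENSG00000113361, chr5:31193686-31329146, plus strand) share the short arm of chromosome 5. CDH2 (ENSG00000170558, chr18:27932879-28177946, minus strand) and CDH7 (ENSG00000081138, chr18:65750252-65890337, plus strand) lie far apart on chromosome 18, and CDH4 (ENSG00000179242, chr20:61252261-61940617, plus strand) lies on chromosome 20. Counts cover the summed exons of each gene, with no division between coding exons and UTRs.

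Promoter windows were available from RefSeq (GRCh38.p14) for 6 of the 10 genes, CDH2, CDH4, CDH7, CDH10, CDH12 and CDH18, and not for CDH1, CDH3, CDH6 and CDH11. Shown here are the bases just upstream of the counted gene's own first base for 4 genes on which the results below turn: CDH7 and CDH18, which moved in opposite directions after deletion of HAR123, and CDH10 and CDH12, which went from at most a few reads per library to detection on differentiation. Capitals mark a CCAAT box.
CDH7 (chr18:65750002-65750251, plus strand): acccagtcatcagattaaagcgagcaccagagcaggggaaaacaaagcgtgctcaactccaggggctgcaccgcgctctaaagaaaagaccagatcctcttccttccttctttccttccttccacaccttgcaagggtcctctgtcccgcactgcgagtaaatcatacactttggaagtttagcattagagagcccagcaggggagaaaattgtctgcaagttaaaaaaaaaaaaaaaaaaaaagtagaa
CDH18 (chr5:20575874-20575963, minus strand): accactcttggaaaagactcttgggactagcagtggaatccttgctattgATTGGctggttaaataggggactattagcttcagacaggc
CDH10 (chr5:24644979-24645228, minus strand): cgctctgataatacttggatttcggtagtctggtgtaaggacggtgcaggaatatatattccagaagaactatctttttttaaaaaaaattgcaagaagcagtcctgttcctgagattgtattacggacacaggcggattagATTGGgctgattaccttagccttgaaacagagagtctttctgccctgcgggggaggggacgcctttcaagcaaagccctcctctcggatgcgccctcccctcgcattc
CDH12 (chr5:22853345-22853594, minus strand): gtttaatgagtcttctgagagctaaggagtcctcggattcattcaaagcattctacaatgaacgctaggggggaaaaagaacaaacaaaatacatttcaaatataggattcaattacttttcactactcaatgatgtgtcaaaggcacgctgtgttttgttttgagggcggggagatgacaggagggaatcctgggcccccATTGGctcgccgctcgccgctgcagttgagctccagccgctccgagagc

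Motifs were searched on both strands, the E-box CAGGTG (reverse complement CACCTG), which zinc finger repressors of CDH1 such as SNAI2 and ZEB1 are known to bind, and the CCAAT box (CCAAT, reverse complement ATTGG). A match of one cannot overlap a match of the other. Over all 35116 RefSeq windows, 17.5% held CAGGTG and 32% held CCAAT within 250 bases upstream of the start. Of the 13 windows of the 6 cadherins, which differ in the start site used, 1 held CAGGTG (CDH4) and 7 held CCAAT. The stretches of CDH18, CDH10 and CDH12 above each hold 1 CCAAT box on the strand shown as ATTGG, and that of CDH7 holds neither motif. The data do not show which start sites these cells used, and a match is only a description of the letters.

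Comparing ECTO with ESC asks which cadherins changed as unedited stem cells became neuroectoderm. The set changed from CDH1 and CDH3 to CDH2. CDH1 fell 58.3-fold and CDH3 14.6-fold in hHAR123 cells, CDH2 rose 10.9-fold, and the 6 type II genes all rose. A gene was called where the Benjamini-Hochberg adjusted p from edgeR's quasi-likelihood test was under 0.01 and the absolute log2 fold change over 1. By that rule 7 of the 10 genes were called higher and 2 lower in hHAR123, against 45.9% of all genes called in either direction. With so large a background the count alone says little, and the sizes and directions are what the values add. In bulk RNA, a change in the number of cells that carry a gene and a change in RNA per cell cannot be told apart.

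CDH1, the main adhesion protein of epithelia and of hESC colonies, had 6313, 6597 and 7342 reads in the hHAR123 ESC libraries and 110, 97 and 84 in ECTO. The ranges are far apart, and the log2 fold change was −5.86 ± 0.06 (SE, edgeR adjusted p = 1.02e-43). CDH3 (P-cadherin), its neighbour on chromosome 16, had 5413, 5538 and 5805 reads in ESC and 307, 327 and 328 in ECTO, a log2 fold change of −3.87 ± 0.05 (edgeR adjusted p = 1.36e-41). CDH3 therefore kept a larger part of its ESC level than CDH1. CDH3 shares 537 exon bases, 8.40% of its exon length, with the antisense gene CDH3-AS1, which had 12 to 56 reads in any library, and whether counting used strand is not given in the sources used here.

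CDH2, the adhesion protein of the neural plate, was already present in ESC, with 1263, 1405 and 1514 reads in hHAR123, and had 11812, 13346 and 13116 in ECTO. Its log2 fold change was 3.45 ± 0.04 (edgeR adjusted p = 4.35e-44). CDH4 (R-cadherin), known from retina and brain, was the member that moved least, with 755, 733 and 785 reads in ESC and 347, 468 and 428 in ECTO. Its CPM was 22.1 to 23.8 in ESC and 16.5 to 19.3 in ECTO. These do not overlap, and the log2 difference of −0.62 ± 0.07 passed the p threshold (edgeR adjusted p = 7.34e-11) but not the fold threshold. The fitted fall of CDH4, 1.54-fold, was larger than that of its mean CPM, from 22.7 to 18.0. The fits normalise the library totals further, and CPM does not.

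Among the type II genes, CDH6, known from kidney and neural crest, had 19, 18 and 25 reads in the hHAR123 ESC libraries and 508, 573 and 577 in ECTO, a rise of 31.7-fold (log2 4.98 ± 0.12, edgeR adjusted p = 3.57e-31). CDH11, known from mesenchyme, was the most abundant type II gene of ESC and rose 6.38-fold, from 229, 241 and 281 reads to 1308, 1372 and 1337 (log2 2.67 ± 0.06, edgeR adjusted p = 7.01e-32). CDH7, known from neural tube and neural crest, rose 4.38-fold, from 55, 64 and 71 reads to 235, 245 and 219 (log2 2.13 ± 0.12, edgeR adjusted p = 7.94e-19). In each of these 3 genes every ECTO library was above every ESC library. The share of all genes separated in this way was not counted. At an adjusted p under 0.01 with no fold threshold, 17839 of 22280 genes passed between these stages in hHAR123.

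CDH10, CDH12 and CDH18, brain cadherins of chromosome 5, were near the limit of detection in ESC. CDH10 had 0, 3 and 1 reads in the hHAR123 ESC libraries and 60, 71 and 78 in ECTO. In CPM, its ECTO level was 33.7 times a floor of 3 counts per ESC library. CDH12 had 3, 0 and 2 reads in ESC and 13, 14 and 15 in ECTO, 6.80 times the same floor. CDH18 had 6, 9 and 12 reads in ESC and 49, 66 and 64 in ECTO, a log2 fold change of 2.96 ± 0.27 (edgeR adjusted p = 7.87e-13). All 3 were called higher, from levels so low in ESC that counting error covers much of the spread there.

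**Figure D1:**
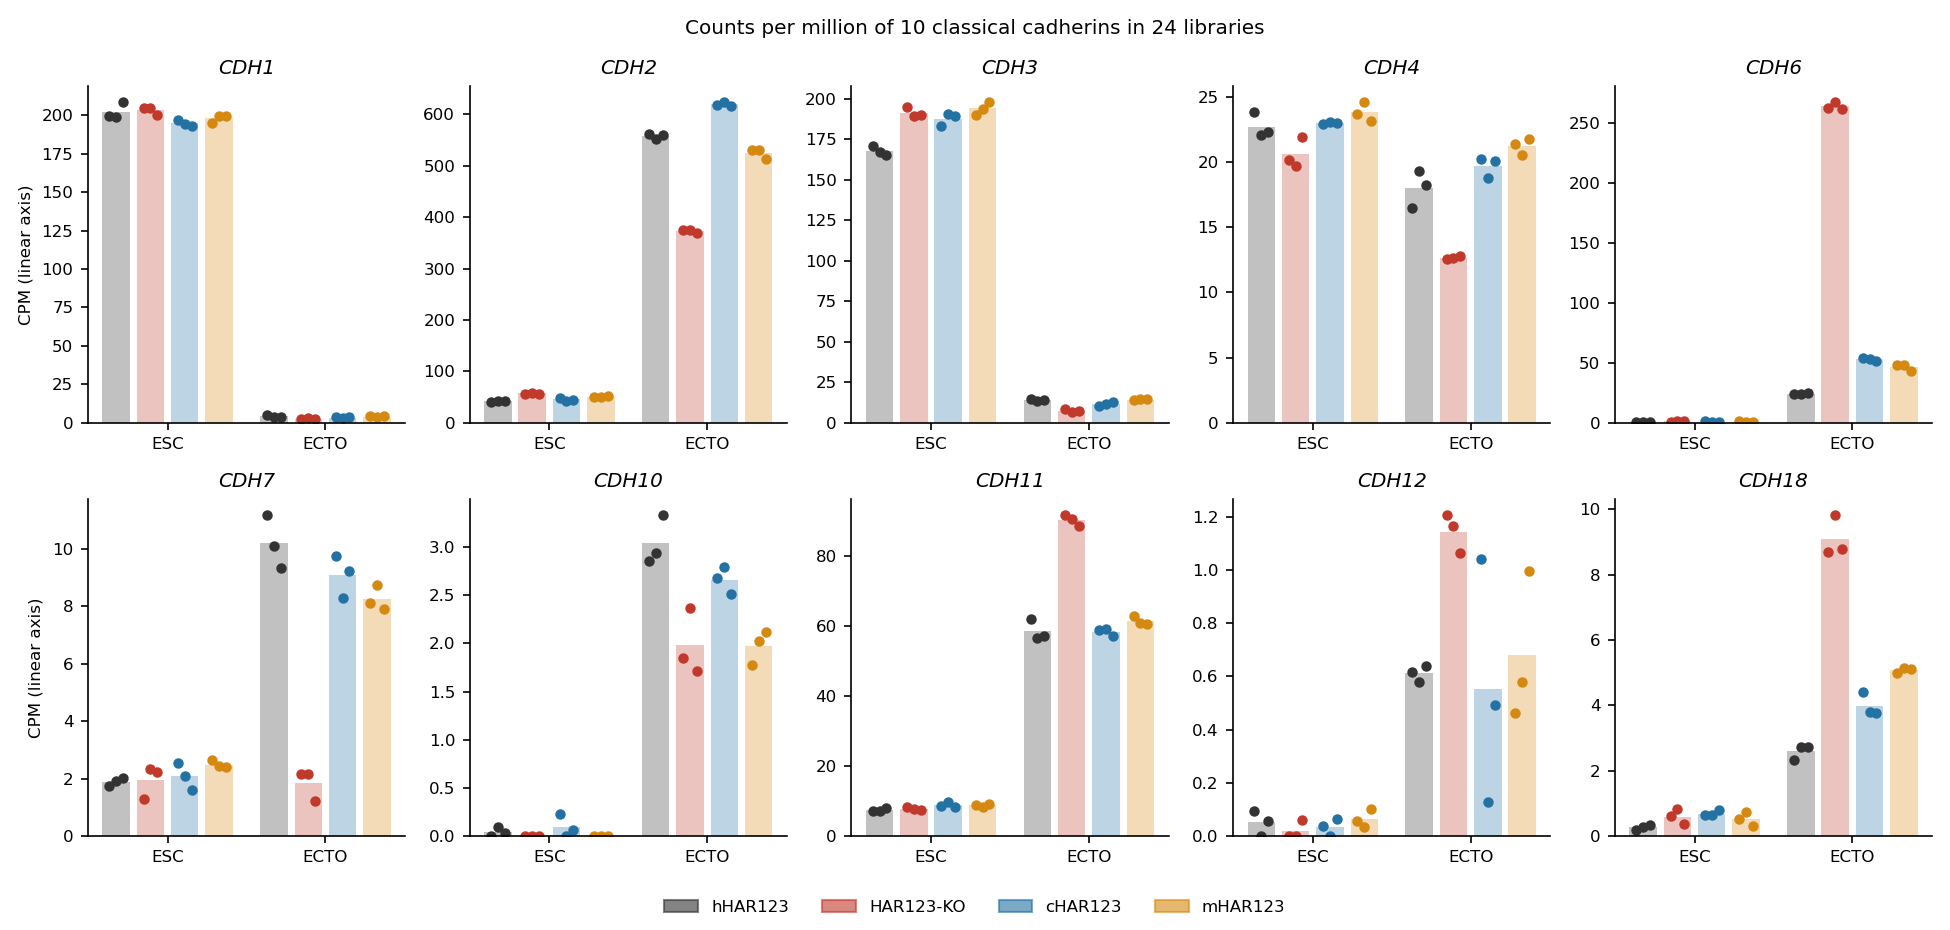
CPM (linear axes starting at 0, a different range in each panel) of the 10 cadherins; bars are means over 3 libraries, points are single libraries, and the left and right blocks of each panel are ESC and ECTO. CDH1 and CDH3 are high in the ESC block and low in the ECTO block, CDH2 is the reverse, and the HAR123-KO bar of CDH6 in ECTO stands at 264 CPM against 24.2 CPM in hHAR123.

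Levels of different genes were compared per exon length, as RPKM, the CPM divided by the summed exon length in kilobases. In hHAR123 ESC the order was CDH1 (33.3 ± 0.917 RPKM, SD, n = 3), CDH3 (26.2 ± 0.475), CDH2 (4.86 ± 0.193), CDH4 (3.03 ± 0.127), CDH11 (0.564 ± 0.0322) and CDH7 (0.130 ± 0.00988), with no overlap between neighbours in this order. CDH6 and CDH18 followed with overlapping ranges, and so did CDH10 and CDH12 at the end. CDH1 and CDH3 made up 48.8% and 38.5% of the summed RPKM of the 10 genes. In hHAR123 ECTO, CDH2 led with 65.0 ± 0.644 RPKM, 82.6% of the sum, followed by CDH11 (4.42 ± 0.232). CDH4 (2.40 ± 0.191) and CDH3 (2.20 ± 0.0854) overlapped, and CDH10, CDH1 and CDH7 overlapped in turn between 0.703 and 0.831 RPKM. The summed RPKM of the 10 genes was 68.2 ± 0.771 in ESC and 78.7 ± 0.834 in ECTO, which differ by less than the shares of the single genes do. RPKM uses library totals without the further normalisation of the fits, and the rise of CDH2 in RPKM was larger than its fitted 10.9-fold. Whether the sum rose or fell between the stages therefore cannot be read from these values.

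**Figure D2:**
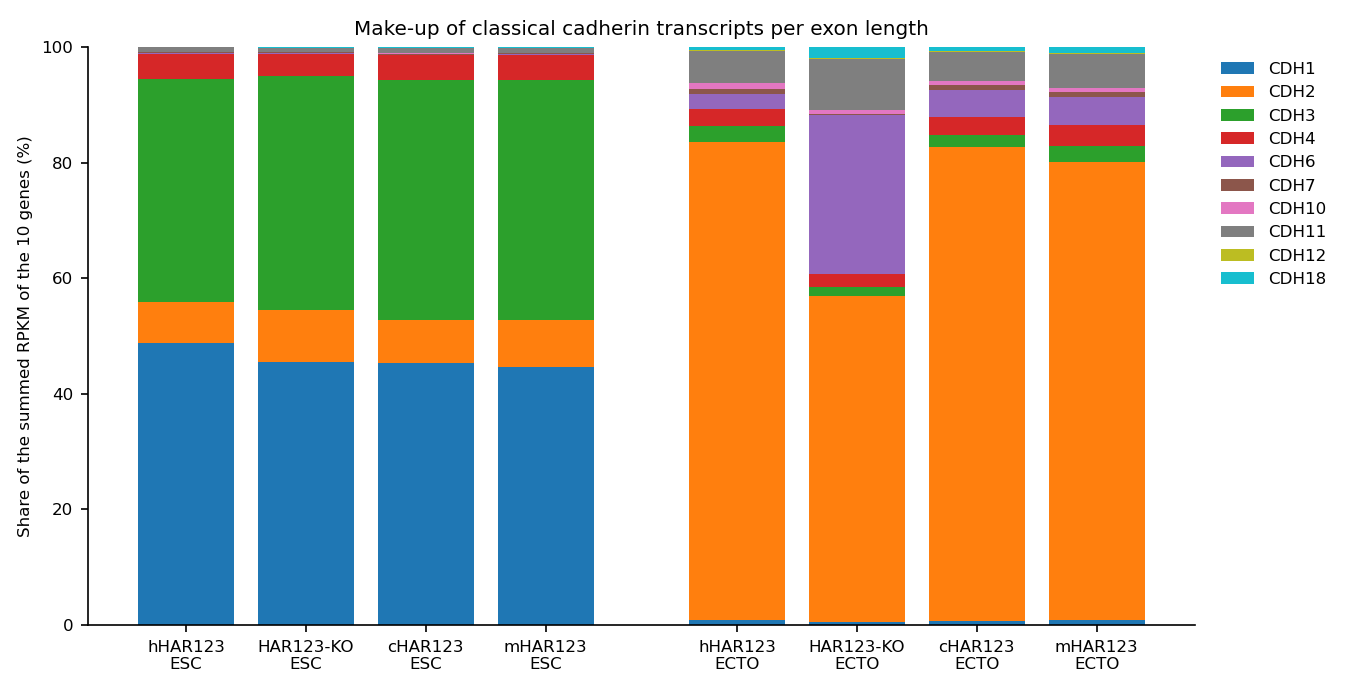
Share of the summed RPKM of the 10 cadherins (percent, linear axis from 0 to 100) taken by each gene, as the mean of 3 libraries per group, without error bars. The 4 ESC bars hold mostly CDH1 and CDH3; the ECTO bars hold mostly CDH2, except that HAR123-KO has CDH2 at 56.5% and CDH6 at 27.5%.

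The same exchange was seen in each edited genotype. In HAR123-KO, 6 of the 10 genes were called higher and 2 lower in ECTO than in ESC, against 41.1% of all genes. In cHAR123, 6 were called higher and 2 lower of 9 tested, against 42.7% of all genes, CDH12 having too few reads to be tested. In mHAR123, 7 were called higher and 2 lower of 10, against 41.9% of all genes. CDH1 and CDH3 were the 2 genes called lower in every genotype, with log2 fold changes of −6.56 and −4.88 in HAR123-KO, −6.09 and −4.23 in cHAR123 and −5.80 and −3.93 in mHAR123. CDH4 was lower in every genotype by −0.34 to −0.91 on the log2 scale, past the p threshold in each and past the fold threshold in none. The log2 fold changes of CDH2, CDH6, CDH11 and CDH18 were 2.52, 7.78, 3.34 and 3.75 in HAR123-KO, 3.57, 5.88, 2.52 and 2.33 in cHAR123 and 3.20, 5.51, 2.64 and 3.11 in mHAR123. CDH10 had 0 reads in every ESC library of HAR123-KO and mHAR123. By the floor of 3 counts per library its CPM was at least 18.5-fold and 20.1-fold higher in ECTO. CDH12 had 0, 0 and 2 reads in HAR123-KO ESC and 28, 28 and 26 in ECTO, and 2, 1 and 3 in mHAR123 ESC and 12, 14 and 23 in ECTO. In cHAR123, CDH10 had 6, 0 and 2 reads in ESC and 67, 66 and 56 in ECTO (log2 4.54 ± 0.37), and CDH12 had 1, 0 and 2 in ESC and 26, 3 and 11 in ECTO. The member that broke the pattern was CDH7 in HAR123-KO, which had 30, 69 and 74 reads in ESC and 50, 52 and 30 in ECTO (log2 −0.32 ± 0.21, edgeR adjusted p = 0.148), whereas it rose by 2.13, 1.93 and 1.56 on the log2 scale in hHAR123, cHAR123 and mHAR123.

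**Figure D3:**
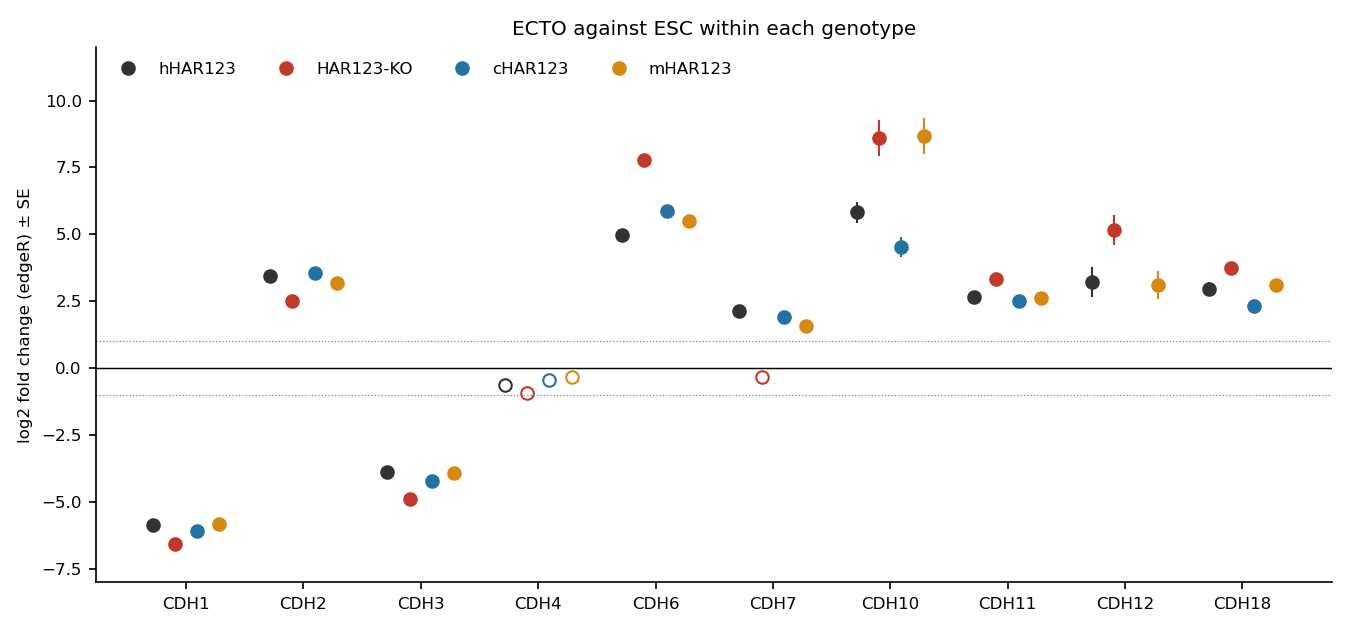
Log2 fold change of ECTO over ESC (edgeR, error bars are SE) for each cadherin in each genotype; filled points were called, open points were not, and dotted lines mark 1 and −1. CDH12 in cHAR123 was not tested, and the fitted values of CDH10 and CDH12 depend on ESC counts near 0. CDH7 is above 1 in 3 genotypes and at −0.32 in HAR123-KO.

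Genes that act with the cadherins were read from lists of fixed membership. Between the stages in hHAR123, 24.6% of all genes were called higher and 21.2% lower, so counts near these shares say little about a list. Of 8 other classical cadherins, 7 were tested in hHAR123 and 3 were called higher in ECTO (among them CDH9 at 6.06 and CDH8 at 3.84 on the log2 scale) and 2 lower (CDH5 −2.96 and CDH15 −2.30). Of 11 catenins and partners, 5 were called higher and 1 lower, against 45.9% of all genes called in either direction. CTNND2, a neural p120 relative, rose by 2.16, CTNNA2, the neural alpha-catenin, by 1.41 and CTNND1, p120-catenin, by 1.31 on the log2 scale, and VCL, vinculin, was at −1.24. CTNNB1, beta-catenin, was at −0.34 and was not called. The median log2 fold change was −0.03 for the catenins, 2.82 for the 10 cadherins and 0.05 for all genes tested.

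Of 9 regulators of CDH1, 8 were tested in the same comparison and 3 were called higher and 4 lower, against 24.6% and 21.2% of all genes. The repressors ZEB2 and ZEB1 rose by 9.87 ± 0.09 and 6.08 ± 0.09 on the log2 scale. GRHL2 and OVOL2, transcription factors that maintain epithelial genes, were at −5.83 ± 0.10 and −4.51 ± 0.19. The median over the 8 tested was −1.46. The list holds repressors together with factors that maintain epithelial genes, so this median does not describe the repressors alone. The genes named here do not stand for the list, and whether repressors of CDH1 rose as a group was not tested. ZEB2 had 15, 9 and 5 reads in the hHAR123 ESC libraries and 7390, 7901 and 7810 in ECTO, and GRHL2 had 1785, 2086 and 2199 in ESC and 25, 25 and 39 in ECTO. Of 12 epithelial junction genes, all were tested, 10 were called lower and none higher, with a median log2 fold change of −3.33. The furthest were CLDN7 (−6.89), a tight junction protein, ESRP1 (−6.11) and ESRP2 (−5.80), epithelial splicing factors, and EPCAM (−5.74), an epithelial adhesion protein, each with an edgeR adjusted p of at most 3.59e-38. OCLN and TJP1 were the 2 that were not called, at 0.25 and −0.49.

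Comparing each edited genotype with hHAR123 at 1 stage asks whether cadherin levels there went with the sequence at HAR123. In ESC few differences were seen. In HAR123-KO ESC, 0 of 8 tested cadherins were called (CDH10 and CDH12 had too few reads), against 1.18% of all genes called by edgeR. At an unadjusted p under 0.05 there were 5 of the 8, and DESeq2 called 0. How many of all genes passed that unadjusted threshold was not counted, here or in the comparisons below. The 2 cadherins that passed the adjusted p threshold were CDH2 and CDH3, neither past the fold threshold. Of all genes, 2573 of 20832 passed it. CDH2 had 1312, 1697 and 1864 reads in HAR123-KO, or 56.2, 57.7 and 56.5 CPM against 39.9, 42.3 and 43.0 CPM in hHAR123, a 1.34-fold difference (log2 0.42 ± 0.04, edgeR adjusted p = 4.62e-11). CDH3 was 1.13-fold higher (log2 0.17 ± 0.03, edgeR adjusted p = 1.15e-05). CDH1 was at 200.4 to 204.9 CPM in HAR123-KO and 198.7 to 208.6 CPM in hHAR123 ESC, with a log2 difference of −0.01 ± 0.03. The log2 differences of CDH4 (−0.16), CDH6 (0.71), CDH7 (0.06), CDH11 (0.04) and CDH18 (1.09) did not pass the test.

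In mHAR123 ESC, 0 of 8 were called by edgeR, against 1.23% of all genes, with 6 at an unadjusted p under 0.05 and 0 called by DESeq2. CDH2 and CDH3 passed the p threshold alone there too (log2 0.24 and 0.17), and CDH1 (−0.07), CDH4 (0.03), CDH6 (0.49), CDH7 (0.35), CDH11 (0.18) and CDH18 (0.90) did not. In cHAR123 ESC, 1 of 8 was called, against 0.85% of all genes. This was CDH18, with 17, 17 and 24 reads against 6, 9 and 12 in hHAR123 (log2 1.31 ± 0.35, edgeR adjusted p = 0.0048). The libraries do not overlap in CPM, at 0.627 to 0.783 against 0.189 to 0.341. The call was lost on leaving out hHAR123 library 1 or 2 or cHAR123 library 2 or 3 (edgeR adjusted p = 0.0133 to 0.0413), and DESeq2 gave this gene no adjusted p. CDH3 passed the p threshold alone (log2 0.13), and CDH1 (−0.08), CDH2 (0.09), CDH4 (−0.01), CDH6 (0.29), CDH7 (0.09) and CDH11 (0.20) did not. mHAR123 and cHAR123 ESC differed in 0 of 8 tested cadherins by edgeR, against 0.158% of all genes, with 1 at an unadjusted p under 0.05 and 0 called by DESeq2. Their log2 differences, mHAR123 over cHAR123, ran from −0.41 (CDH18) to 0.26 (CDH7), with CDH1 at 0.01, CDH2 at 0.15, CDH3 at 0.04, CDH4 at 0.04, CDH6 at 0.20 and CDH11 at −0.02.

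In ECTO, deletion of HAR123 went with a different set of cadherins. CDH6 was 11.3-fold higher in HAR123-KO than in hHAR123, CDH18 was 3.61-fold higher and CDH7 was 5.33-fold lower. These were the 2 called higher and the 1 called lower of 10 tested, against 9.45% of all genes called in either direction. The other 7 passed the adjusted p threshold but not the fold threshold: CDH11 and CDH12 were higher, and CDH1, CDH2, CDH3, CDH4 and CDH10 were lower. By the adjusted p threshold alone, all 10 cadherins and 9412 of 21362 genes passed, so passing it was common in this comparison. All 4 type I genes were therefore lower, by −0.46 to −0.86 on the log2 scale, while the type II genes went both ways. The median over the 10 genes was −0.50 and over all genes tested 0.00.

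CDH6 had 508, 573 and 577 reads in the hHAR123 ECTO libraries and 6080, 6422 and 6400 in HAR123-KO. The 6 libraries fall into 2 tight groups of 3, and the log2 fold change was 3.50 ± 0.04 (edgeR adjusted p = 4.72e-51), between 3.48 and 3.51 when any 1 of them was left out. Per exon length CDH6 rose from 1.94 ± 0.0385 to 21.2 ± 0.256 RPKM, from below CDH3 and CDH4 to second behind CDH2. Its share of the summed RPKM of the 10 genes was 2.47% ± 0.0384 in hHAR123 and 27.5% ± 0.244 in HAR123-KO (SD, n = 3). The summed RPKM was 78.7 ± 0.834 and 77.0 ± 0.857.

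CDH7 had 235, 245 and 219 reads in hHAR123 ECTO and 50, 52 and 30 in HAR123-KO. The highest HAR123-KO library, at 2.16 CPM, was below the lowest hHAR123 library, at 9.35 CPM, and the log2 fold change was −2.41 ± 0.14 (edgeR adjusted p = 1.45e-20). At 1.23 to 2.16 CPM, HAR123-KO ECTO lay over the range of HAR123-KO ESC, 1.29 to 2.35 CPM. CDH18 had 49, 66 and 64 reads in hHAR123 ECTO and 202, 236 and 215 in HAR123-KO (log2 1.85 ± 0.13, edgeR adjusted p = 3.62e-18), with no overlap.

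CDH2 had 11812, 13346 and 13116 reads in hHAR123 ECTO and 8727, 9004 and 9037 in HAR123-KO, or 552 to 562 CPM against 369 to 376 CPM. The 2 genotypes do not overlap and CDH2 was 1.44-fold lower (log2 −0.53 ± 0.03, edgeR adjusted p = 1.97e-22). CDH11 went the other way, from 56.7 to 62.2 CPM in hHAR123 to 88.6 to 91.8 CPM in HAR123-KO (log2 0.68 ± 0.04, edgeR adjusted p = 1.25e-19). The remainders of CDH1 and CDH3 were lower still after deletion. CDH1 had 50, 66 and 61 reads against 110, 97 and 84 (log2 −0.73 ± 0.16, edgeR adjusted p = 0.000121), and CDH3 had 196, 164 and 174 against 307, 327 and 328 (log2 −0.86 ± 0.09, edgeR adjusted p = 2.01e-11). CDH4 was at 12.6 to 12.8 CPM against 16.5 to 19.3 CPM (log2 −0.46 ± 0.08). CDH10, at 43, 57 and 42 reads against 60, 71 and 78, and CDH12, at 28, 28 and 26 against 13, 14 and 15, had log2 differences of −0.57 ± 0.18 and 0.95 ± 0.30, with edgeR adjusted p of 0.00593 and 0.00571.

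**Figure D4:**
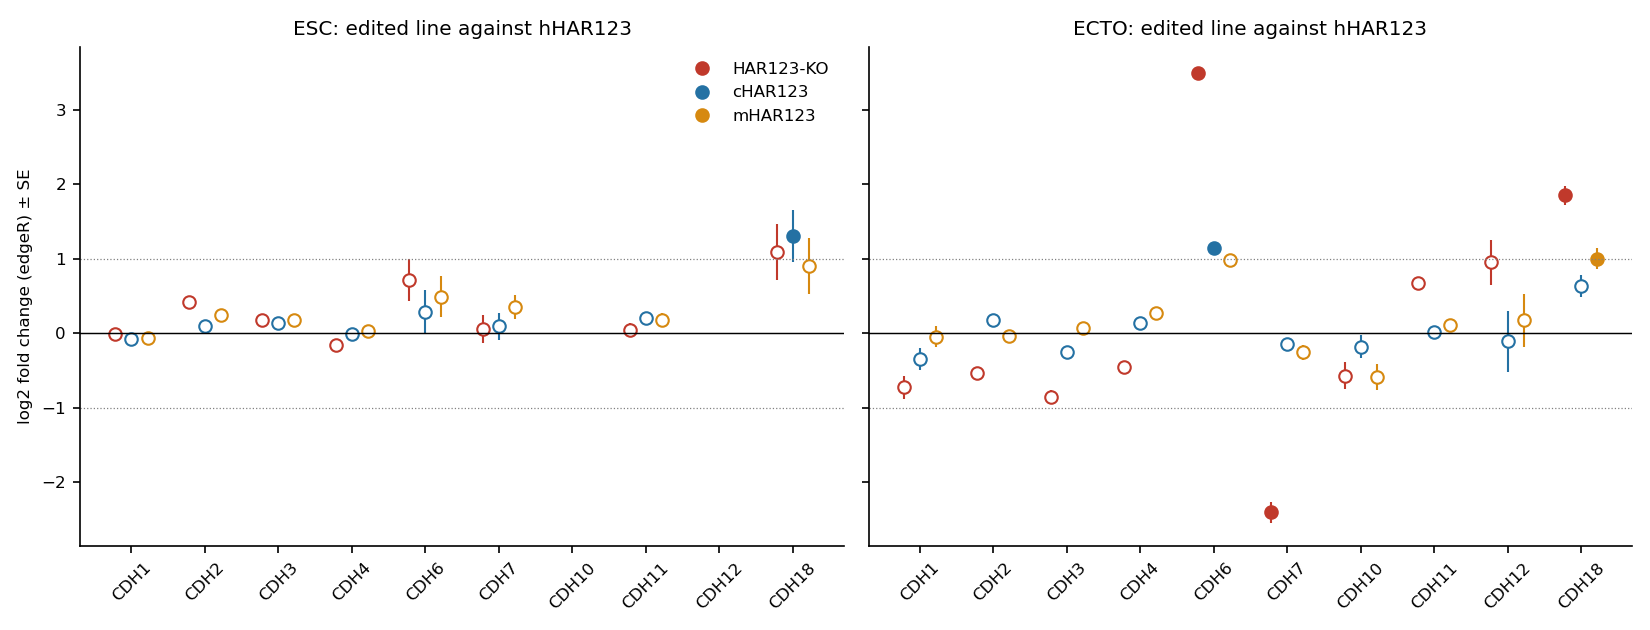
Log2 fold change over hHAR123 (edgeR, error bars are SE) of each cadherin in the 3 edited genotypes, in ESC on the left and ECTO on the right; filled points were called, open points were not, and dotted lines mark 1 and −1. CDH10 and CDH12 were not tested in ESC. In ECTO the HAR123-KO points of CDH6 (3.50), CDH18 (1.85) and CDH7 (−2.41) stand apart from those of both replacements.

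Markers of other cell types moved with these values. The summed level of 10 neural crest genes was 254.9 to 263 CPM in hHAR123 ECTO, 2272 to 2288 in HAR123-KO, 455.8 to 466.7 in cHAR123 and 517.7 to 523.8 in mHAR123, with no marker at 3 or fewer reads in all libraries of any ECTO group. All 10 were called higher in HAR123-KO, 7 in cHAR123 and 8 in mHAR123, against 4.92%, 0.522% and 0.603% of all genes. The summed level of the 8 neuroectoderm genes was 1307 to 1322 CPM in hHAR123 ECTO and 535.9 to 547.5 in HAR123-KO. There 6 of 8 were called lower, against 4.52% of all genes. The part of these markers in the cadherin results was not tested.

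The related lists were read in the same comparison, HAR123-KO against hHAR123 in ECTO, where 9.45% of all genes were called. Of the 8 other classical cadherins, 6 were tested and CDH9 (2.39 on the log2 scale) and CDH20 (1.48) were called higher and CDH8 (−1.90) lower, all 3 being type II genes. CDH9 had 177, 219 and 186 reads in hHAR123 and 969, 1065 and 1040 in HAR123-KO, and CDH8 had 1125, 1295 and 1278 in hHAR123 and 330, 355 and 316 in HAR123-KO. Of the 11 catenins and partners only CTNNA2 was called, higher by 1.33 ± 0.05 on the log2 scale. Of 7 regulators of CDH1 tested, SNAI2, a repressor of CDH1 that is also one of the neural crest markers, was higher by 4.99 ± 0.08 and OVOL2 by 1.90 ± 0.31, and none were called lower. ZEB1, at −0.61 ± 0.05, and ZEB2, at 0.48 ± 0.03, were not called. Of 11 epithelial junction genes tested, OCLN (−1.06) and CLDN6 (−1.05), both of tight junctions, were called lower and none higher, with a median of −0.65 against 0.00 over all genes.

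**Figure D5:**
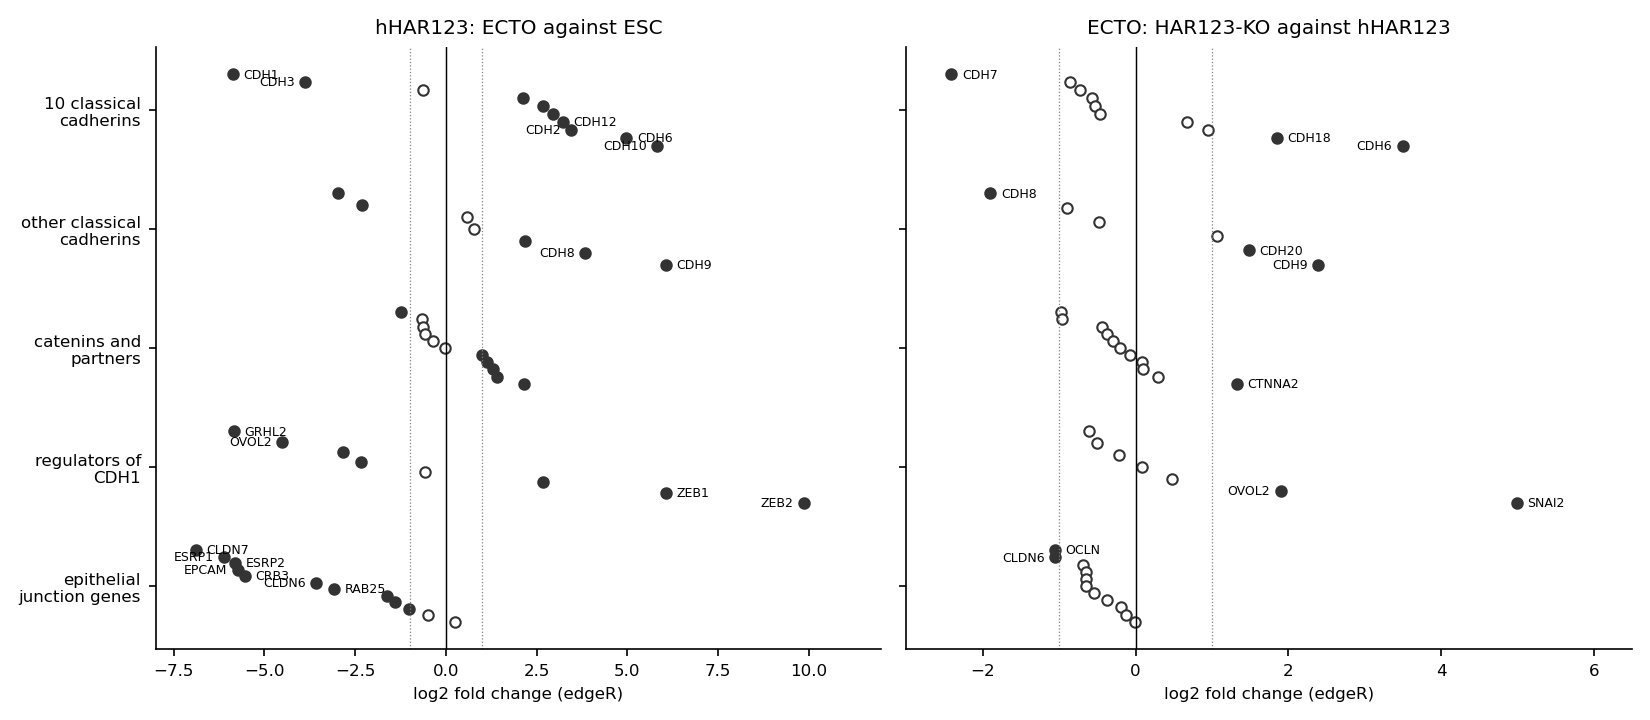
Log2 fold changes (edgeR) of the 10 cadherins and of 4 related lists, for ECTO over ESC in hHAR123 on the left and HAR123-KO over hHAR123 in ECTO on the right; each point is a gene, filled if called, and dotted lines mark 1 and −1. On the left 10 of 12 epithelial junction genes lie below −1 with ZEB2 at 9.87 on the other side; on the right SNAI2 (4.99), CDH6 (3.50) and CDH9 (2.39) are furthest up and CDH7 (−2.41) furthest down.

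The replacement lines lay between hHAR123 and HAR123-KO for CDH6 and CDH18. In cHAR123 ECTO, 1 of 10 cadherins was called against hHAR123, against 0.978% of all genes. This was CDH6, with 1352, 1253 and 1143 reads against 508, 573 and 577 (log2 1.14 ± 0.05, edgeR adjusted p = 4.68e-21). CDH18 was 1.55-fold higher (log2 0.63 ± 0.15) and CDH2 1.12-fold higher (log2 0.17 ± 0.02), past the p threshold alone. CDH1 (−0.35), CDH3 (−0.26), CDH4 (0.14), CDH10 (−0.18), CDH11 (0.01) and CDH12 (−0.11) did not pass the test. In mHAR123 ECTO, 1 of 10 was called, against 1.03% of all genes. This was CDH18, with 130, 124 and 118 reads against 49, 66 and 64 (log2 1.0 ± 0.14, edgeR adjusted p = 9.56e-07), a value on the fold threshold itself that went below it on leaving out hHAR123 library 1 (0.93) or mHAR123 library 3 (0.99), and marginally without mHAR123 library 2. CDH6 in mHAR123, with 1255, 1151 and 992 reads, was at 0.98 ± 0.06, just under the threshold, and at 1.02 without mHAR123 library 3. CDH4 was 1.21-fold higher in mHAR123 (log2 0.27 ± 0.07, edgeR adjusted p = 0.00412), past the p threshold alone, and CDH1 (−0.05), CDH2 (−0.04), CDH3 (0.07), CDH10 (−0.59), CDH11 (0.11) and CDH12 (0.17) did not pass the test. CDH7 had 196 to 244 reads in cHAR123 and 183 to 211 in mHAR123, with log2 differences from hHAR123 of −0.15 ± 0.09 and −0.26 ± 0.10 that did not pass the test.

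The replacements were also set against HAR123-KO in ECTO, which asks whether lines with an ortholog differ from a line with no enhancer. In cHAR123, 1 of 10 was called higher and 3 lower than in HAR123-KO, against 7.61% of all genes: CDH7 was 4.89-fold higher, and CDH6 was 5.03-fold, CDH18 2.29-fold and CDH12 2.04-fold lower. In mHAR123, 1 of 10 was called higher and 1 lower, against 7.33% of all genes: CDH7 was 4.52-fold higher and CDH6 5.63-fold lower, while CDH18 was 1.77-fold lower and passed the p threshold alone. CDH2 was 1.65-fold and 1.42-fold higher than in HAR123-KO in cHAR123 and mHAR123, and CDH11 1.56-fold and 1.45-fold lower, past the p threshold alone. So were CDH3 (log2 0.62 and 0.95) and CDH4 (0.63 and 0.76) in both, and CDH1 in mHAR123 (0.71). CDH1 in cHAR123 (0.41), CDH10 in both (0.41 and 0.01) and CDH12 in mHAR123 (−0.75) did not pass the test. The call of CDH12 in cHAR123 rested on 26, 3 and 11 reads against 28, 28 and 26 (log2 −1.03 ± 0.34, edgeR adjusted p = 0.00895). It was lost on leaving out any library but cHAR123 library 1, and without cHAR123 library 2 the log2 difference was −0.56. These comparisons share libraries with those against hHAR123.

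cHAR123 and mHAR123 ECTO differed in 0 of 10 cadherins by edgeR, against 0.261% of all genes, with 8 of 10 at an unadjusted p under 0.05 and 0 called by DESeq2. The share of all genes at that unadjusted threshold was not counted, so the 8 have no background. At an adjusted p under 0.01 with no fold threshold, 2 of 10 cadherins and 886 of 21108 genes passed. CDH2 was 1.16-fold lower in the libraries labelled mHAR123 than in those labelled cHAR123 (log2 −0.21 ± 0.02, edgeR adjusted p = 2.99e-10), at 514 to 531 against 616 to 624 CPM. CDH3 was 1.26-fold higher there (log2 0.33 ± 0.08, edgeR adjusted p = 0.00534). CDH6 was at 42.9 to 48.3 against 51.2 to 54.1 CPM (log2 −0.16 ± 0.05, edgeR adjusted p = 0.0154). CDH1 (0.30), CDH4 (0.13), CDH7 (−0.12), CDH10 (−0.41), CDH11 (0.10), CDH12 (0.28) and CDH18 (0.37) did not pass the test either.

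Whether the effect of a genotype differed between the stages was tested with an interaction term. For HAR123-KO, the log2 fold change over hHAR123 was called higher in ECTO than in ESC for 1 of 10 cadherins, CDH6, and lower for 2, CDH7 and CDH3, against 7.87% of all genes. For cHAR123 and mHAR123, 0 of 10 were called by edgeR, against 0.797% and 0.967% of all genes, with 2 and 3 at an unadjusted p under 0.05 and 0 called by DESeq2. CDH10, CDH12 and CDH18, which have few ESC reads, did not pass this test in any genotype, with a standard error of up to 1.55 for CDH10.

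The genes whose log2 CPM most resembled that of each cadherin over the 24 libraries were picked among 19757 genes, as a description. CDH1 was nearest to ZC3HAV1 and TERF1 and CDH3 to ARAP3 and LARGE2 (Pearson r 0.998 to 0.999), and CDH2 to VPS13B and RALB (r = 0.998 for both). CDH6 was nearest to WNT1 (r = 0.996) and DPY19L1 (r = 0.995), CDH11 to PLCB4 (r = 0.998) and PCBP4 (r = 0.997), and CDH18 to DLC1 (r = 0.984) and SYNGR1 (r = 0.979). CDH7 was nearest to CCBE1 (r = 0.983) and MGAT4A (r = 0.976), and CDH4 to JPH3 (r = 0.970) and ZSWIM4 (r = 0.967). CDH10 was nearest to an unnamed gene and ZBBX (r = 0.988 for both) and CDH12 to PWWP3B and METRN (r = 0.947 for both). All points share the same 24 libraries and the step between the 2 stages. CDH7 and CDH6, which both rose with differentiation in hHAR123, had an r of 0.516 with each other.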

How the data were processed

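Per the labels and the study's methods, the authors aligned reads with STAR 2.5.2b to GRCh38 and summed exon reads per gene with featureCounts, and deposited raw counts of 24 libraries. The strand setting is not given in the sources used here. Of the lines of the table, 3 were fragments of 1 broken row and were dropped. Counts were used as deposited. CPM divides by the library's total count and RPKM also by the exon length in the table. Neither uses the TMM factors of the fits, so changes between the stages differ in size between CPM or RPKM and the fitted fold changes. Each comparison was fitted alone with edgeR 4.0.16 in R 4.3.3 (filterByExpr, TMM, glmQLFit, glmQLFTest), with Benjamini-Hochberg adjustment over all genes tested, and a call needed an adjusted p below 0.01 together with a log2 fold change beyond 1 in either direction. There were 17 comparisons. The scripts were tested on simulated data. Alternatives were DESeq2 1.42.0, its size factors in edgeR, no filter on low counts, all 24 libraries in one fit, a replicate block, an adjusted p under 0.05, no fold threshold and leaving out each library.

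All 10 cadherins were to be named in each comparison and, of each related list, up to 4 called genes with the largest absolute log2 fold change in HAR123-KO ECTO or, between the stages, in hHAR123; in the interactions the text gives members past the p threshold. Genes of the lists named outside this rule were chosen after their values were seen. The cadherins and the lists were chosen with earlier results of these data known. A supplementary table of the study's own comparisons was used for the label check alone. Floors of 3 counts cover counting error only.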

Additional observations from a re-analysis of the deposited data

Results flagged for a closer look

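The effect of a genotype on a cadherin differed between the 2 stages, by the interaction term of edgeR at an adjusted p under 0.01, in 7 of 10 genes for HAR123-KO and in 1 gene each for cHAR123 and mHAR123. Of all genes, 7507 of 23113 passed the same rule for HAR123-KO, 2031 of 23329 for cHAR123 and 3035 of 23681 for mHAR123. The 1 of 10 for each replacement is near the share of all genes. Values are the log2 fold change over hHAR123 in ECTO minus that in ESC. For HAR123-KO, CDH6 was at 2.77 ± 0.26 (SE, edgeR adjusted p = 1.13e-12), from 0.71 in ESC, where CDH6 had 15 to 39 reads a library in these 2 genotypes, and 3.50 in ECTO. CDH7 was at −2.48 ± 0.25 (edgeR adjusted p = 4.86e-12), from 0.06 in ESC and −2.41 in ECTO. CDH2 was at −0.96 ± 0.05 (edgeR adjusted p = 8.22e-24), since it was higher than in hHAR123 in ESC (0.42) and lower in ECTO (−0.53). CDH3 was at −1.04 ± 0.08 (edgeR adjusted p = 6.05e-15) in the same way, from 0.17 and −0.86, and at −0.97 without HAR123-KO ECTO library 2.

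Smaller differences for HAR123-KO were those of CDH1 (−0.72 ± 0.14, edgeR adjusted p = 2.14e-05), CDH11 (0.64 ± 0.09, edgeR adjusted p = 7.13e-08) and CDH4 (−0.31 ± 0.10, edgeR adjusted p = 0.00903). For cHAR123, CDH3 was at −0.39 ± 0.08 (edgeR adjusted p = 0.000437), and for mHAR123, CDH2 was at −0.26 ± 0.05 (edgeR adjusted p = 1.95e-05). Both of these join ESC and ECTO columns of 1 label and so rest on the ECTO labels of cHAR123 and mHAR123 described above.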

How the results depend on the processing

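Of 242 recounts of members called over 17 comparisons, 222 stayed within 1.5 times the main count, and of 1979 refitted log2 fold changes of members 1960 kept their side of the threshold, 15 lost it, 4 gained it and 0 called values turned their sign, while 36 uncalled values did. With no fold threshold, the members called were 2 in each ESC comparison with hHAR123, 10 in HAR123-KO, 3 in cHAR123 and 3 in mHAR123 ECTO, 8 in each replacement against HAR123-KO, 2 between the replacements in ECTO, and 7, 1 and 1 in the interactions of HAR123-KO, cHAR123 and mHAR123. At an adjusted p under 0.05, HAR123-KO ESC had 1 member called, CDH18 (log2 1.09, edgeR adjusted p = 0.0392). Leaving out libraries gave 0 to 1 members called in cHAR123 ESC, in mHAR123 ECTO and in the cHAR123 interaction, where CDH6 was called at 1.06 without cHAR123 ESC library 1. CDH12 in cHAR123 against HAR123-KO was not called by DESeq2 (adjusted p = 0.279) or with all 24 libraries in one edgeR fit (adjusted p = 0.0252), and ranged from −1.90 to −0.56 over left-out libraries. Against HAR123-KO, mHAR123 gained CDH3 (1.05) without HAR123-KO library 1 and CDH12 (−1.12) without mHAR123 library 3. Exchanging the cHAR123 and mHAR123 ECTO columns, chosen after seeing the label check, was run for the stage comparisons and interactions of these 2 genotypes. It gave 9 and 8 members called between the stages in cHAR123 and mHAR123 in place of 8 and 9, and 0 in both interactions. In comparisons within ECTO the exchange swaps the 2 names, so that against hHAR123 CDH6 would be called in mHAR123 and CDH18 in cHAR123, and against HAR123-KO the calls of CDH12 and CDH18 would belong to mHAR123.

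The replicate numbers did not pair the libraries: deviations from the group means of same-numbered libraries correlated at −0.023 to 0.037 over 14 comparisons. With the replicate block, the members called were 3 in HAR123-KO ECTO against hHAR123 and 9 in hHAR123 ECTO against ESC, and no member's call changed. Counts over all genes moved by more than 1.5 times under DESeq2, from 246, 178 and 259 genes in HAR123-KO, cHAR123 and mHAR123 ESC to 155, 78 and 114, from 208 and 219 in cHAR123 and mHAR123 ECTO to 129 and 131, from 55 between these to 14, and from 186 in the cHAR123 interaction to 117. At an adjusted p under 0.05 the cHAR123 and mHAR123 interactions gave 377 and 487 genes, the latter against 229. With no fold threshold the genes called in ECTO rose from 2018 to 9412 in HAR123-KO, from 208 to 2105 in cHAR123 and from 219 to 2972 in mHAR123, and in ESC to 2573, 3417 and 4057. They rose to 8271 and 7716 for the replacements against HAR123-KO, to 164 and 886 between the replacements in ESC and ECTO, to 17037 to 17839 between the stages, and to 7507, 2031 and 3035 in the interactions. Depth limits the members with few reads, which in ESC were CDH6 (15 to 42 reads a library), CDH18 (6 to 24), CDH10 (0 to 6) and CDH12 (0 to 3), and in ECTO CDH12 (3 to 28).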

Other observations

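The other marker lists were read for the same ECTO comparison, HAR123-KO against hHAR123, where 9.45% of all genes were called. Of 8 pluripotency genes 1 was called higher and none lower, and of 4 neuron genes none were called. Of 6 surface ectoderm genes 3 were tested, 1 called higher and 1 lower, with KRT5 and KRT14 at 3 or fewer reads in every library and a summed level of 5.08 to 7.56 CPM in hHAR123 and 9.78 to 10.0 in HAR123-KO. Of 7 mesoderm genes 2 were tested and 1 was called higher, with TBXT, MIXL1 and HAND1 at 3 or fewer reads in every library and a summed level of 10.5 to 11.2 CPM in hHAR123 and 21.1 to 22.9 in HAR123-KO. Of 5 endoderm genes 1 was tested and not called.

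CDH2 and CDH3 were above hHAR123 in the ESC libraries of both HAR123-KO and mHAR123, comparisons that share the 3 hHAR123 libraries. CDH3 was at 189 to 195 CPM in HAR123-KO, 183 to 191 in cHAR123, 190 to 198 in mHAR123 and 165 to 171 in hHAR123 ESC, so that no library of an edited line overlapped the unedited ones. How many of all genes were separated in this way was not counted, and all 3 comparisons share the hHAR123 libraries. At an adjusted p under 0.01 with no fold threshold, 2573 of 20832 genes passed in HAR123-KO ESC. In cHAR123 and mHAR123 ESC there were 3417 of 20935 and 4057 of 21139.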
